A study of Rattus norvegicus with 30 samples.

Results

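The genes described here are 5 interferon response genes, Stat2, Irf1, Irf9, Lgals3bp and Ifi27, taken by symbol from the 17353 gene symbols of a table of FPKM, a level corrected for transcript length (per kilobase) and for the fragments mapped in each library. All 5 were found, and all 5 were among the 8940 genes that passed a filter on low values, a mean of at least 1 FPKM over all libraries. The cells were rat embryonic fibroblasts of the REF line, an untransformed line per the labels. Control cells were not starved, and the other cells had been without serum for a stated time before harvest, namely 2, 3, 4, 6, 8, 10, 12, 14 and 16 days. With 3 biological replicates in every group, the 10 groups gave 30 libraries of total RNA, 27 of them starved. No group carried an interferon treatment, an infection or a genetic change according to the labels. Without serum such cells stop dividing and become quiescent, and by its title the series asks how the depth of that resting state is graded.

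Interferons are secreted proteins that warn cells of viruses and other intracellular pathogens. When they bind their receptors, Janus kinases phosphorylate STAT proteins, and these enter the nucleus and switch on a broad set of interferon-stimulated genes. STAT2 and IRF9 are parts of the complex ISGF3, which binds the interferon-stimulated response element (ISRE) of such genes. The gamma-activated site (GAS) is a STAT binding motif of genes that respond to interferon-gamma, such as that for IRF1, itself a transcription factor of the same family as IRF9. LGALS3BP is a secreted glycoprotein that binds galectins, and IFI27 is a small hydrophobic membrane protein. Both are classical products of the response and serve as readouts of it.

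Promoter sequence was taken from RefSeq (build GRCr8, not the rn6 build of the expression values), which held 300 bases around the start of each of the 5 genes, 250 before it and 50 after. Each was searched on both strands for the ISRE core (GAAA, 2 bases of any kind, then GAAA again), the shorter IRF core AANNGAAA that lies inside it, the GAS motif TTCNNNGAA and the NF-kappa-B motif. The stretches below are shown because they hold the matches, which are in capitals. Only bases before the start are printed, the Irf9 stretch being limited to 30 bases.
Irf1 (chr10:38417685-38417934, plus strand): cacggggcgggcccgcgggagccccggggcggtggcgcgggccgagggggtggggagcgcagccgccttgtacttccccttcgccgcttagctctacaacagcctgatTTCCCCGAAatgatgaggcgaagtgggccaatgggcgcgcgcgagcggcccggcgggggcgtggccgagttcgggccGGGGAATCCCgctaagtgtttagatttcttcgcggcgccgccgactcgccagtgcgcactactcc
Irf9 (chr15:33065754-33065783, plus strand): ccctggaggagAACTGAAActtagggtggg
Lgals3bp (chr10:104127849-104128098, minus strand): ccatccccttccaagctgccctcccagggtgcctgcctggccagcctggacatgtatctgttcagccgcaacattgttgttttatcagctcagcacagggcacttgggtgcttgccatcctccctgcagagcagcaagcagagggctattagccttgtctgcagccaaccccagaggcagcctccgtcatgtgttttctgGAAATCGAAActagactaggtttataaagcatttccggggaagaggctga
Ifi27 (chr6:128355062-128355311, plus strand): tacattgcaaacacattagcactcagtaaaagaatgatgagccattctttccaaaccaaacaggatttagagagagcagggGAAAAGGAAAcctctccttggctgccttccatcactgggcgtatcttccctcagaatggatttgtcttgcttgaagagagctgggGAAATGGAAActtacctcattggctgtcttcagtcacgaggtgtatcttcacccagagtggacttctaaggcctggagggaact

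The Ifi27 promoter held 2 ISRE cores, beginning 169 and 84 bases before the start, and the Lgals3bp promoter held 1, beginning 50 bases before it. The ISRE core was found in 3.92% of the 33469 promoters of this length, and the IRF core in 26.4%. Irf9 held an IRF core 71 bases before the start and, outside the printed stretch, a GAS motif 99 bases before it. Irf1 held a GAS motif 142 bases and an NF-kappa-B motif 65 bases before the start, motifs present in 8.87% and 7.51% of promoters. None of the 4 motifs was found in the Stat2 window, which says only that these letters are not in those bases. These are matches of letters, and no binding was measured here.

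Across the 30 libraries the 5 genes covered a wide range of levels. Ifi27 averaged 343 FPKM, above 97.0% of the tested genes, and Lgals3bp 73.3 FPKM, above 85.0%. Stat2 averaged 19.8 FPKM, while Irf9 and Irf1 averaged 11.4 FPKM each, above 37.9% and 37.8% of the tested genes. Ifi27 and Lgals3bp were thus more abundant, per length of transcript, than Stat2, Irf9 and Irf1.

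FPKM sums ran from 582501 to 785072 per library, correlations between replicates across genes from 0.981 to 0.991, and read depth is unknown because the table holds no counts. Libraries numbered replicate 1 deviated from their group means together (median r of 0.316 over 45 pairs of groups). With replicates 2 and 3 only, all 5 genes still passed in day 2 against control, day 16 against control and day 16 against day 2. In the RefSeq gene table (GRCr8) no other gene overlapped any of the 5. Of 10 fibroblast markers, Col1a1, Col3a1, Vim, S100a4 and Pdgfrb were high, at 56.6 FPKM (Pdgfrb) or more in control cells. Dcn, Lum and Pdgfra were low (0.0807, 0.0944 and 0.192 FPKM in control cells, at most 2.16, 5.48 and 1.52 in any library), Col1a2 was listed at 0 in all 30 libraries and Thy1 in 26. Their sum was 14900 to 16900 FPKM in control cells, 24300 to 28400 at day 2 and 9420 to 10900 at day 16, and its part in the results below was not tested. An abundant fibroblast collagen at 0 means that a 0 in this table may be a failed estimate, so zeros below are given as listed values only. The summed FPKM of 12 macrophage markers was 7.45 to 7.87 in the control libraries, 2.16 to 2.51 at day 2, 0.87 to 1.4 at day 8, 1.64 to 3.31 at day 14 and 1.47 to 2.85 at day 16, with Adgre1, Aif1, Cd163 and Tyrobp at 0 in all 30 libraries. That sum was lower in the starved groups than in control cells and higher at days 14 and 16 than at day 8, and its part in the results was not tested. Its markers did not move together. Csf1r and Cd14, the highest in control cells (4.33 and 2.82 FPKM), stood at 0.0631 and 0.828 at day 16. Lyz2 was listed at 0 in control cells and stood at 0.144 at day 2 and 1.14 at day 16. The sum of lymphocyte markers reached at most 1.2 FPKM in any library and that of endothelial markers 0.763. Among epithelial markers the keratin gene Krt8 went from 11.7 FPKM in control cells to 21.3 at day 2 and 68.0 at day 16. The other epithelial markers did not share that course. Krt19 was at 0 in all 30 libraries, Epcam and Krt14 in 29, Cdh1 in 28, Krt5 in 27 and Krt18 in 24 (at most 0.181 FPKM). Like Irf9, Lgals3bp and Ifi27, Krt8 was higher at day 2 than in control cells and higher again at day 16. The part of Krt8-expressing cells in the results for those genes was not tested. A level in such bulk RNA cannot tell a larger share of expressing cells from more RNA per cell.

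After 2 days without serum all 5 genes rose, between 1.85-fold (Irf9) and 4.04-fold (Lgals3bp) on the log2(FPKM + 1) scale. Of the 5, Stat2, Irf9, Lgals3bp and Ifi27 were still raised in every later group, while Irf1 at day 3 lay over the range of the control libraries. At day 2, 30% of all tested genes rose against control and 30.7% fell. Every day 2 library lay above every control library for all 5 genes. The share of all genes with that property at day 2 was not computed. Tests are limma's moderated tests with Benjamini-Hochberg adjustment over the 8940 genes, errors after ± are SD (n = 3) for FPKM and SE for fitted log2 changes, and p-values measure the spread between these replicates.

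**Figure D1:**
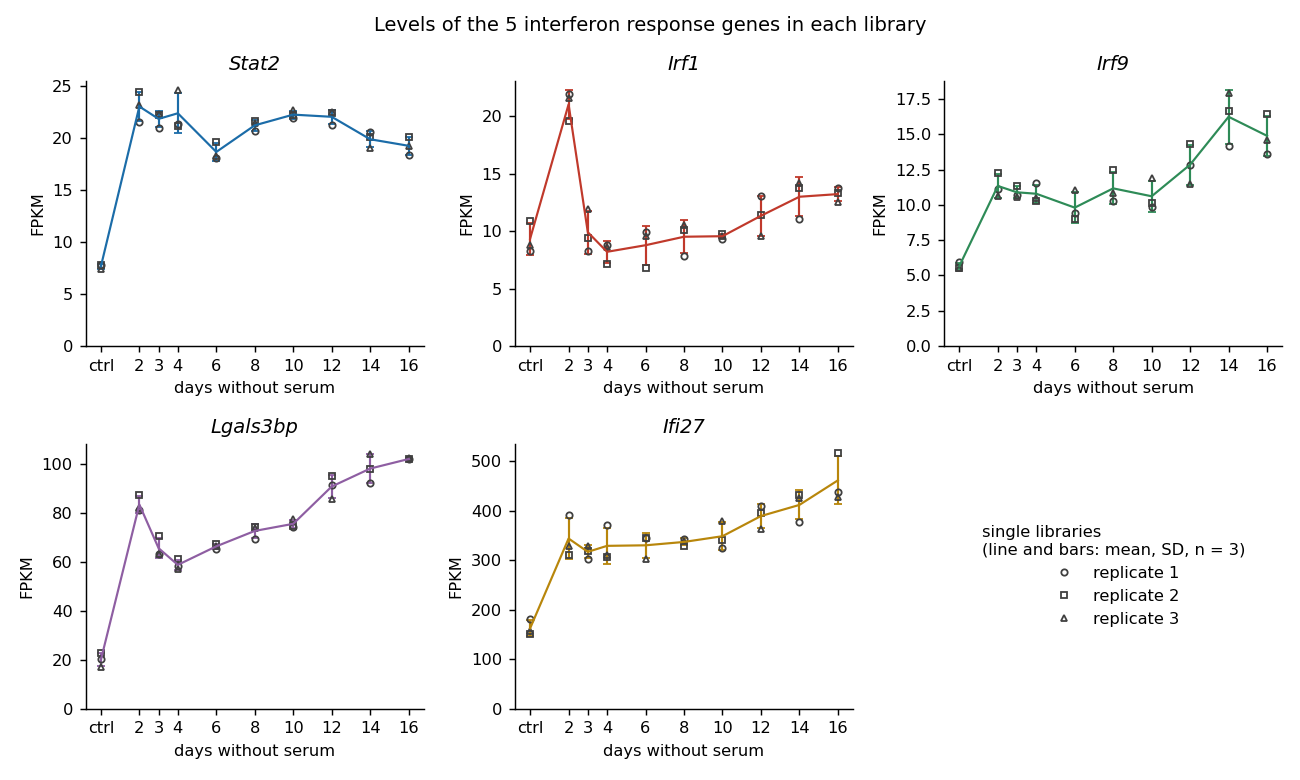
FPKM of Stat2, Irf1, Irf9, Lgals3bp and Ifi27 (vertical axes, starting at 0) against days without serum, with unstarved control cells at the left. Open symbols are single libraries by replicate number and lines with bars are the mean and SD of 3 libraries. Irf1 stands at 21.0 FPKM at day 2 and 9.91 at day 3, while the other genes stay above all control libraries.

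Stat2, the STAT protein particular to ISGF3, stood at 7.398, 7.799 and 7.807 FPKM in the control libraries and at 21.6, 23.2 and 24.4 at day 2. The rise was 1.47 ± 0.0671 (log2, 2.77-fold, adjusted p = 8.16e-16). All 27 starved libraries lay between 18.1 and 24.6 FPKM, so no starved library came near the control range. Within starvation the level drifted down, from 23.0 ± 1.43 at day 2 to 19.3 ± 0.892 at day 16, a fall of 1.19-fold (-0.25 ± 0.0671, adjusted p = 0.00436). It was lower at day 6 (18.7 ± 0.854) than at day 4 (22.4 ± 1.94, adjusted p = 0.0166). That step did not pass without Day4 replicate 3 (adjusted p = 0.141), Day6 replicate 1 (0.0798) or Day6 replicate 3 (0.0644). Nor did it pass after rescaling libraries to an equal sum (0.265), after leaving out short RNA genes and rescaling (0.125), or with replicates 2 and 3 only (0.0805).

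Irf9, the DNA-binding subunit of ISGF3, stood at 5.53, 5.55 and 5.93 FPKM in control cells and at 10.6, 11.1 and 12.3 at day 2. That rise was 0.89 ± 0.103 (log2, 1.85-fold, adjusted p = 4.70e-08). From day 2 to day 10 its group means stayed between 9.81 and 11.3 FPKM. They then reached 12.9 ± 1.42 at day 12, 16.2 ± 1.90 at day 14 and 14.9 ± 1.44 at day 16. Day 16 was 1.29-fold above day 2 (0.36 ± 0.103, adjusted p = 0.00603), and its 3 libraries (13.6, 14.6 and 16.4) lay above the 3 of day 2.

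Irf9 and Stat2 code for partners of one complex, and their transcripts did not keep a fixed proportion. The ratio of Irf9 to Stat2 FPKM within a library, which does not depend on how libraries are scaled, was 0.709, 0.751 and 0.759 in control cells. It was 0.459, 0.503 and 0.516 at day 2 and stayed between 0.427 and 0.602 through day 10. At day 16 it was 0.740, 0.759 and 0.816. The day 2 and control ranges did not overlap, nor did those of day 16 and day 2, and day 16 lay again over the control range. An exact two-sided permutation test gave p = 0.1 for both differences, the smallest p that 3 against 3 libraries allow, and p = 0.5 for day 16 against control.

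**Figure D2:**
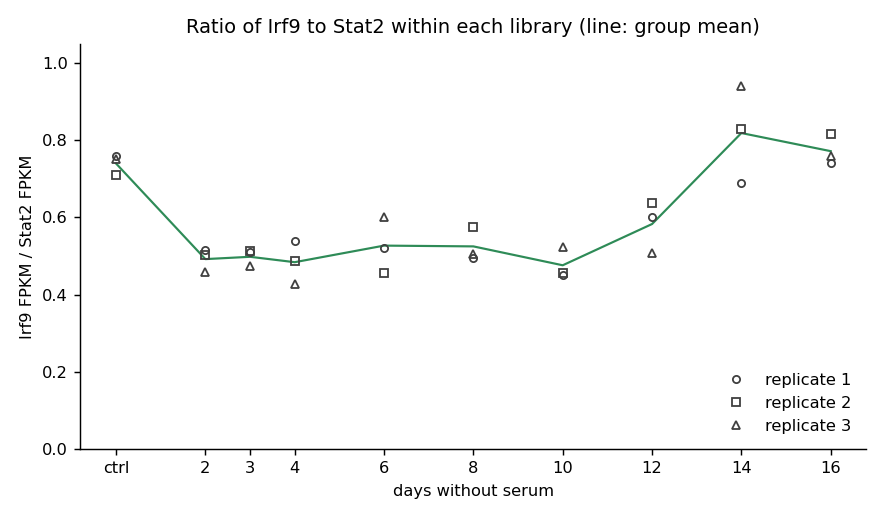
Irf9 FPKM divided by Stat2 FPKM in each library (vertical axis, no unit) against days without serum, with control at the left and a line through the group means. The mean is 0.740 in control cells, 0.492 at day 2, 0.476 at day 10 and 0.772 at day 16.

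Irf1, the transcription factor under the GAS motif printed above, had a different course. Control libraries held 8.32, 8.81 and 10.9 FPKM and day 2 libraries 19.6, 21.6 and 21.9, a rise of 1.10 ± 0.142 (log2, 2.14-fold, adjusted p = 2.78e-07). At day 3 the 3 libraries held 8.32, 9.44 and 12.0 FPKM, over the same range as control cells. The fall from day 2 to day 3 was 2.04-fold (-1.03 ± 0.142, adjusted p = 8.77e-06), and 0.817% of the tested genes fell by more. From day 3 to day 12 none of the contrasts with control passed for Irf1, with changes between -0.17 ± 0.142 at day 4 and 0.25 ± 0.142 at day 12. A smaller second rise followed. Irf1 stood at 13.0 ± 1.69 FPKM at day 14 and 13.2 ± 0.614 at day 16, 1.35-fold and 1.38-fold above control (adjusted p = 0.00898 and 0.00552), and still 1.55-fold below day 2 (-0.63 ± 0.142, adjusted p = 0.000786).

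Lgals3bp showed the largest change against control of the 5 at each time point. Control libraries held 17.2, 20.2 and 22.6 FPKM and day 2 libraries 81.1, 81.9 and 87.2, a rise of 2.01 ± 0.0724 (log2, 4.04-fold, adjusted p = 1.05e-17). The level then dipped to 65.6 ± 4.15 at day 3 (1.27-fold below day 2, adjusted p = 0.00131), a call that did not pass when libraries were rescaled to an equal sum (adjusted p = 0.0591). Its lowest starved mean was 58.8 ± 2.01 at day 4. Later means were 66.3 at day 6, 72.6 at day 8, 75.5 at day 10, 90.8 at day 12 and 98.1 at day 14, and at day 16 all 3 libraries held 102 FPKM. Day 16 was 1.22-fold above day 2 (0.29 ± 0.0724, adjusted p = 0.00216). This last call did not pass after rescaling to an equal sum (0.22, adjusted p = 0.0913) or after leaving out short RNA genes and rescaling (0.22, adjusted p = 0.0558).

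Ifi27 stood at 151, 156 and 181 FPKM in control cells and at 311, 329 and 391 at day 2, a rise of 1.07 ± 0.0974 (log2, 2.1-fold, adjusted p = 5.63e-10). From day 3 to day 10 the group means lay between 317 and 349 FPKM. They were 389 ± 24.2 at day 12, 412 ± 29.3 at day 14 and 462 ± 48.3 at day 16, when the libraries held 429, 439 and 517. Day 16 was 1.34-fold above day 2 (0.43 ± 0.0974, adjusted p = 0.000935), with no overlap between the 2 groups.

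The Ifi27 value has a neighbour that went the other way. Ifi27l2b, the next protein-coding gene in the RefSeq table and a member of the same family, was looked up after the Ifi27 values were seen. It fell from 901 ± 133 FPKM in control cells to 65.2 ± 12.0 at day 2, a 13.6-fold fall (-3.77 ± 0.179, adjusted p = 1.68e-15), and stood at 95.9 ± 8.54 at day 16. The sum of both genes was 1060 ± 140 FPKM in control cells, 409 ± 38.1 at day 2 and 557 ± 51.7 at day 16. How the authors' counting divided reads between related genes is not given in the sources used here, so the Ifi27 rise is uncertain to that extent, and its part in the result was not tested.

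**Figure D3:**
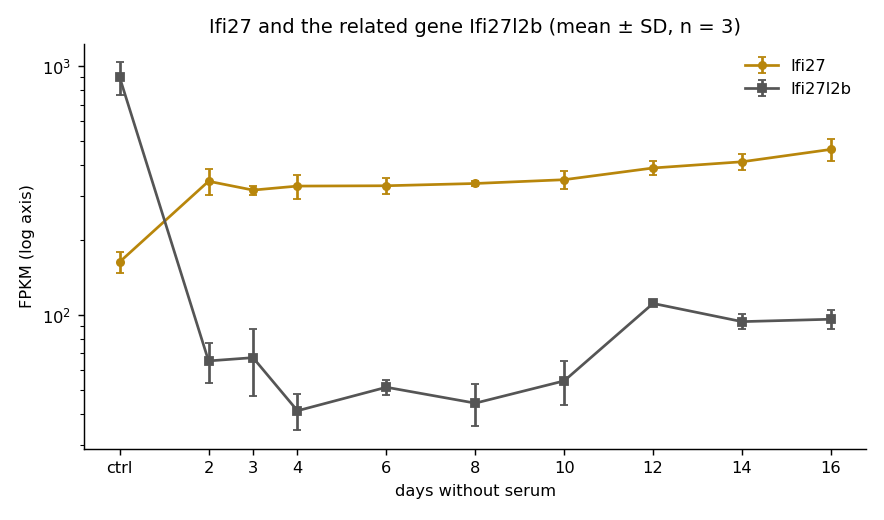
FPKM of Ifi27 and Ifi27l2b (vertical log axis, mean with SD of 3 libraries) against days without serum, with control at the left. Ifi27l2b is the higher in control cells (901 against 163 FPKM) and the lower in all starved groups (65.2 against 344 at day 2).

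All 27 starved libraries lay above all 3 control libraries for 4 genes, Stat2, Irf9, Lgals3bp and Ifi27, and not for Irf1. Of all tested genes, 16.8% had that property. The same 4 genes passed upward against control in each of the 9 starved groups, as did 17.3% of all genes, while Irf1 passed in 3 of 9. Differences in any shape among the 9 starved groups passed for all 5 (moderated F test, adjusted p between 1.63e-09 for Lgals3bp and 0.00357 for Stat2), against 61.5% of all genes.

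**Figure D4:**
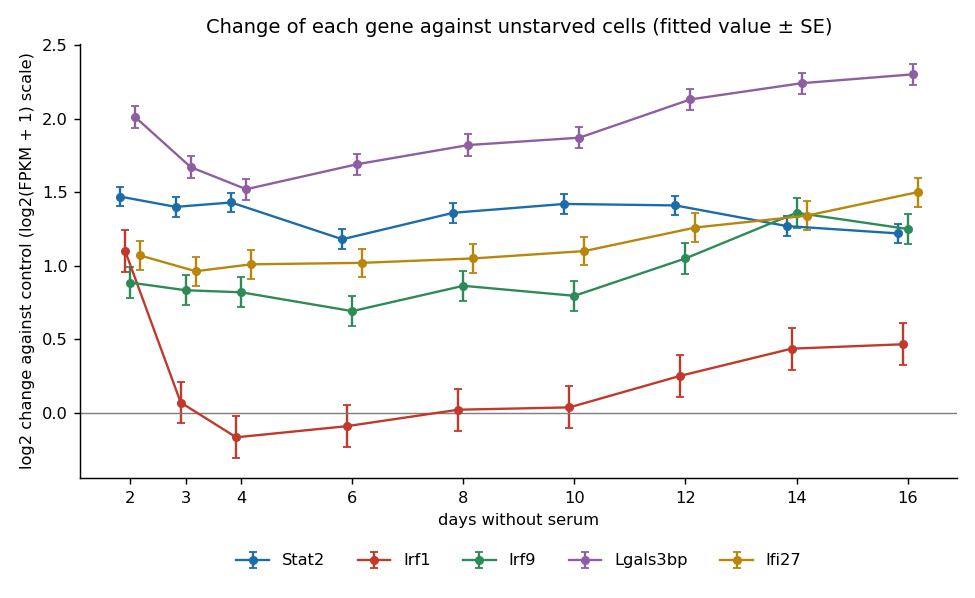
Fitted log2 change against control (vertical axis, log2(FPKM + 1) scale, bars are SE) of the 5 genes against days without serum. Lgals3bp is the highest throughout (2.01 at day 2, 2.30 at day 16), and Irf1 drops from 1.10 at day 2 to 0.07 at day 3.

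The course between day 2 and day 16 separated the genes. Against day 2, day 16 was higher for 3 of the 5 (Irf9, Lgals3bp and Ifi27) and lower for 2 (Stat2 and Irf1), with 20.7% of all genes higher and 20.5% lower. Against control all 5 were higher at day 16, from 1.38-fold (Irf1) to 4.93-fold (Lgals3bp), with 32.4% of all genes higher. A straight line over days 2 to 16 passed upward for 3 of the 5 (26.6% of all genes), with fitted changes over 14 days of 0.49 ± 0.0997 for Irf9, 0.60 ± 0.0979 for Lgals3bp and 0.45 ± 0.0760 for Ifi27. For Stat2 it just missed (-0.14 ± 0.0640, adjusted p = 0.0575). It passed downward without any 1 of the day 6 libraries (adjusted p from 0.0278 to 0.0471) or without Day12 replicate 2 (0.0448) or 3 (0.0431), and after rescaling to an equal sum (-0.27, adjusted p = 0.000482). For Irf1 it gave 0.04 ± 0.221, a course that a line does not describe.

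Most of that rise lay late. Between days 2 and 8, 0 of the 5 rose (17.4% of all genes) and 2 fell (18.4%), Irf1 by 1.08 ± 0.142 and Lgals3bp by 0.20 ± 0.0724 (log2). The Lgals3bp fall (adjusted p = 0.0352) did not pass without Day2 replicate 2 (0.132), Day2 replicate 3 (0.0541), Day8 replicate 1 (0.128) or Day8 replicate 3 (0.0564). From day 8 to day 16, 4 of the 5 rose (15.8% of all genes), by 0.49 ± 0.0724 for Lgals3bp, 0.45 ± 0.0974 for Ifi27, 0.44 ± 0.142 for Irf1 and 0.39 ± 0.103 for Irf9. Stat2 did not pass (-0.14 ± 0.0671, adjusted p = 0.134). The Irf1 call (adjusted p = 0.0195) was lost without Day8 replicate 1 (0.121), Day16 replicate 1 (0.0608) or Day16 replicate 2 (0.053).

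Scaling of the libraries bore on the late rise. With each library rescaled to an equal sum the median of all genes moved by -0.159 (log2) from day 8 to day 16, and the share of upward among all calls went from 52.2% to 23.5%. The Lgals3bp rise still passed (0.32, adjusted p = 0.0179). Ifi27 (0.28, adjusted p = 0.0566), Irf1 (0.30, 0.14) and Irf9 (0.23, 0.108) did not, and Stat2 passed downward (-0.30, 0.00489). Relative to that median the changes were 0.476 for Lgals3bp, 0.455 for Irf1, 0.436 for Ifi27, 0.390 for Irf9 and -0.144 for Stat2. Subtracting the median takes out the shift that the rescaling put in, so these values are no separate check of the late rise. Between days 2 and 8 the same rescaling moved the median by 0.104 and the upward share from 48.7% to 63.6%, and the Lgals3bp fall did not pass there (-0.10, adjusted p = 0.494).

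Between neighbouring starved groups few steps passed. From day 2 to day 3 the falls of Irf1 and Lgals3bp passed, 2 of the 5 genes against 8.58% of all genes downward. Over the 7 later steps the fall of Stat2 from day 4 to day 6 passed (6.52% of all genes downward). So did the rise of Lgals3bp from 75.5 ± 1.76 FPKM at day 10 to 90.8 ± 4.70 at day 12 (0.26 ± 0.0724, adjusted p = 0.0436, with 1.23% of all genes upward). The Lgals3bp step did not pass without any 1 of the day 10 libraries or of Day12 replicates 1 and 2 (adjusted p from 0.0735 to 0.16). Nor did it pass after rescaling to an equal sum (0.288), after leaving out short RNA genes and rescaling (0.198), or with replicates 2 and 3 only (0.275).

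Ranked by level, the groups fell into steps whose neighbours mostly could not be separated. Stat2 was highest at day 2, then at days 4, 10, 12, 3, 8, 14, 16 and 6, and lowest in control cells. Of these neighbours only day 6 and control differed (adjusted p = 3.56e-14). Irf9 ran from day 14 through days 16, 12, 2, 8, 3, 4, 10 and 6 to control, and again only day 6 and control differed (adjusted p = 2.01e-06). Lgals3bp and Ifi27 both began with days 16, 14 and 12. Lgals3bp went on with days 2, 10, 8, 6, 3 and 4 before control, and Ifi27 with days 10, 2, 8, 6, 4 and 3 before control, the last pair being the one that differed in each (adjusted p = 1.57e-15 and 3.53e-09). For Irf1 the pair that differed was at the top, day 2 above day 16 (adjusted p = 0.000786), followed by days 14, 12, 3, 10 and 8, then control, then days 6 and 4.

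The genes whose 10 group means ran most like each of the 5 were read off as a description, with 7166 genes of at least 5 FPKM compared and the step from control to starved cells shared by most of them. For Stat2 they were Pigv, Pold4 and Nat6 (Pearson r = 0.980, 0.978 and 0.977). For Irf1 they were Ift172, Fbxl8 and Akr7a2 (0.971, 0.951 and 0.941), of which Akr7a2 stood at 30.4 FPKM in control cells, 47.4 at day 2 and 31.2 at day 16. For Irf9 they were Magee1, Chpf and Podxl2 (0.981, 0.977 and 0.975). For Lgals3bp they were Cpt1c, Ypel3 and Itm2c (0.993, 0.991 and 0.991), and for Ifi27 Itm2b, Itm2c and Ltbp3 (0.994, 0.990 and 0.990). None of these 14 genes is on the interferon lists used here. Among the 5 themselves, Lgals3bp and Ifi27 were the most alike (0.984) and Stat2 and Irf1 the least (0.234).

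The rest of the pathway was described from 9 lists by role, with 118 of 135 listed symbols outside the 5 genes in the table and 63 of them tested. At day 2, 32 of the 63 rose, 4 fell and 27 did not pass, which is 50.8% upward against 30% of all genes. Their median change was 0.34 (log2), with 0.00 for all genes. From day 2 to day 16, 27 rose and 7 fell, 42.9% upward against 20.7%, with a median of 0.23. After rescaling to an equal sum the counts from day 2 to day 16 were 18 up and 7 down, with 1442 up and 2067 down among all genes, and with short RNA genes left out they were 18 up and 8 down. No gene for an interferon was tested, since of the 6 in the table Ifnb1, Ifna1, Ifna2, Ifng and Ifnk were listed at 0 in all libraries and Ifna4 in 29 of 30.

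**Figure D5:**
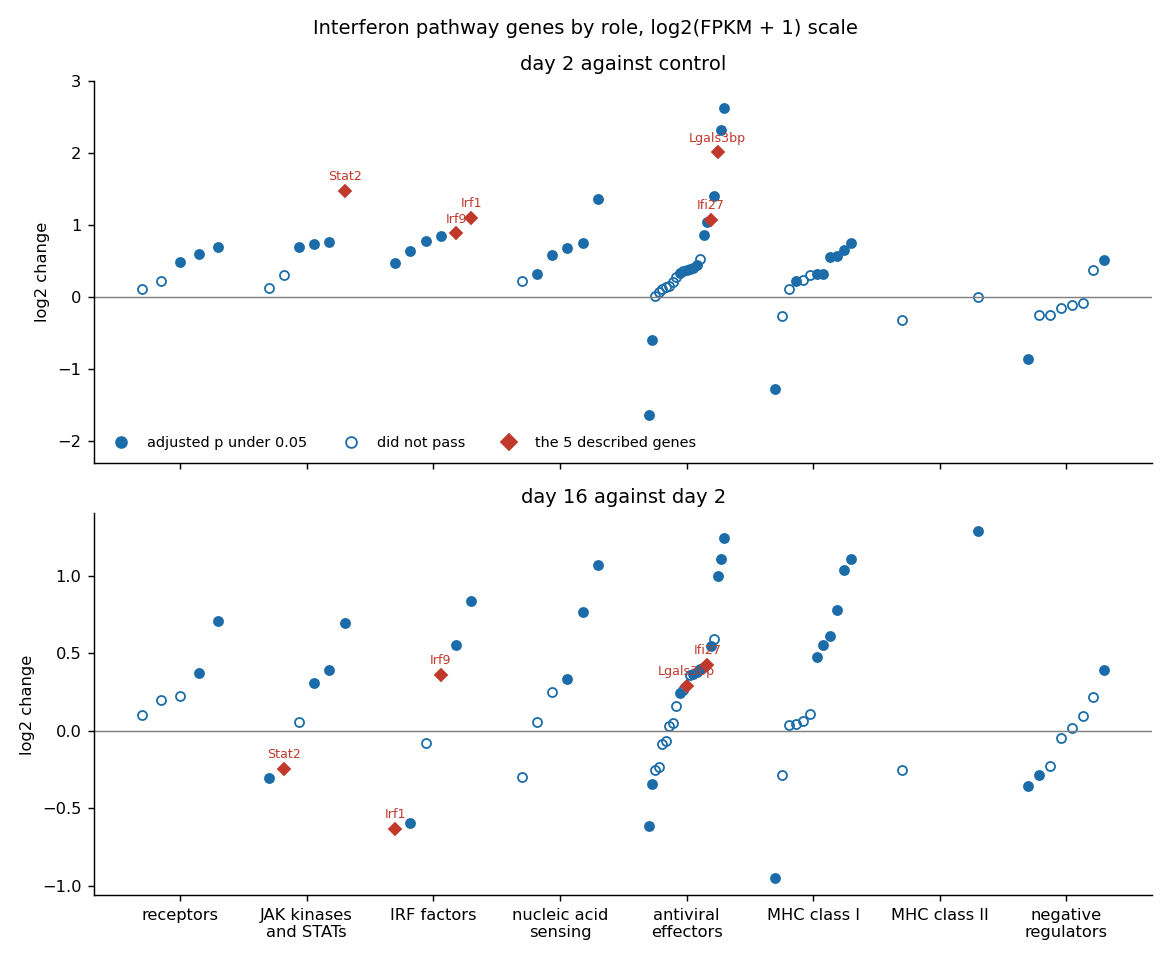
Log2 change (vertical axes, log2(FPKM + 1) scale) of tested interferon pathway genes by role, day 2 against control above and day 16 against day 2 below. Each point is 1 gene, filled where adjusted p is under 0.05 and open where not, and red diamonds are the 5 genes described in full. At day 2 the 4 other IRF genes and the 5 described genes are all filled and above 0.

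Of 5 receptor genes 3 rose at day 2 and 0 fell. For this and the other counts by role, the shares of all genes are 30% upward and 30.7% downward at day 2. From day 2 to day 16 they are 20.7% upward and 20.5% downward. Most of these lists hold few genes, and no list was tested as a set. Ifnar1, a chain of the type I interferon receptor, rose 1.62-fold, to 18.5 ± 2.48 FPKM, and the interferon-gamma receptor chains Ifngr1 and Ifngr2 rose 1.40-fold and 1.51-fold. Later, by day 16, the Ifnlr1 and Il10rb chains of the interferon-lambda receptor rose above day 2 (0.71 and 0.37, log2). Of 5 kinase and STAT genes 3 rose at day 2. The kinase Jak1 rose 1.71-fold at day 2 and 1.31-fold from there to day 16, when it stood at 46.1 ± 1.40 FPKM, and Stat3 rose 1.67-fold and then 1.24-fold. Tyk2, a kinase of the type I receptor, did not pass at day 2 (9.27 ± 1.53 and 10.2 ± 0.0442) and was lower at day 16 (8.07 ± 0.758, adjusted p = 0.0243).

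All 4 tested IRF genes outside the 5, Irf2, Irf3, Irf5 and Irf7, rose at day 2, as did 30% of all genes. Irf7, a factor that amplifies type I interferon expression, stood at 1.75 ± 0.604 FPKM in control cells, 3.89 ± 0.503 at day 2, 2.17 ± 0.115 at day 3 and 6.20 ± 0.955 at day 16. Irf2, which can compete with IRF1 for its sites, rose from 6.81 ± 1.08 to 11.2 ± 1.67 and then to 20.7 ± 0.598. Irf3 rose from 29.7 ± 5.77 to 51.9 ± 12.3 and fell to 33.8 ± 6.13 by day 16 (adjusted p = 0.0176). So day 2 to day 16 took Irf2, Irf7 and Irf9 up and Irf1 and Irf3 down.

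Sensors and adaptors of viral nucleic acid rose in 5 of 6 cases at day 2 (30% of all genes). From day 2 to day 16 they rose in 3 of 6 (20.7% of all genes), with 0 falls in either. The kinase gene Ikbke rose 2.57-fold at day 2, the RNA sensor Ddx58 (RIG-I) 1.69-fold and the mitochondrial adaptor Mavs 1.61-fold. Mavs went on from 9.39 ± 1.08 FPKM at day 2 to 20.7 ± 1.59 at day 16. Tlr3 rose by 0.76 and Myd88 by 0.33 (log2) over the same days.

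Antiviral effectors did not move as a block. Outside Ifi27 and Lgals3bp, 48 were in the table and 21 were tested. At day 2, 9 rose (42.9%, against 30% of all genes), 2 fell and 10 did not pass. The nuclease gene Isg20 rose from 1.58 ± 0.528 to 14.8 ± 2.83 FPKM, the membrane protein gene Ifitm3 from 6.00 ± 1.12 to 33.8 ± 4.79 and galectin-9 (Lgals9) from 2.38 ± 0.0902 to 8.09 ± 1.60. Ube2l6, the conjugating enzyme for ISG15, fell from 10.9 ± 0.623 to 2.82 ± 0.314, and Samhd1 fell from 3.22 ± 0.133 to 1.85 ± 0.549. From day 2 to day 16, 9 rises (42.9%, against 20.7% of all genes) and 2 falls passed. At day 16 Lgals9 stood at 20.2 ± 0.587 FPKM, Ifi47 at 2.00 ± 0.757 and Ifitm3 at 69.1 ± 11.2. Gbp2 changed by -0.62 and Sp110 by -0.34 (log2). Ifi47 and Gbp2, both counted here, lay close to the filter on low values. Ifi47 reached it only with its day 16 libraries, its next highest group mean being 1.32 FPKM (day 10). Gbp2 reached it only with its day 2 libraries, its means from day 3 to day 14 being 0.326 to 0.783 FPKM. Isg15 itself did not pass (0.797 ± 0.447, 1.23 ± 0.702 and 1.85 ± 0.849 FPKM in control cells and at days 2 and 16). Mx1, Oas1a, Oas2, Oas3, Plscr1, Cxcl9 and Ccl5 were listed at 0 in all 30 libraries, and Ifit1 reached 0.094 FPKM in its highest library. Ifitm2 and Ifitm3 are close relatives, and reads could have been split between them.

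Of 12 tested genes of MHC class I presentation 7 rose at day 2 (30% of all genes) and 1 fell. From day 2 to day 16, 6 rose (20.7% of all genes) and 1 fell. B2m, the light chain of class I molecules, went from 137 ± 9.43 FPKM to 204 ± 24.8 and 310 ± 5.23. The chaperone Tapbp rose 1.58-fold at day 2, and the immunoproteasome subunit Psmb9 rose 1.68-fold and then 1.71-fold, while its partner Psmb10 fell 1.93-fold from day 2 to day 16. The class I heavy chains RT1-A1 and RT1-A2 rose 2.16-fold and 2.06-fold from day 2 to day 16. RT1-N3 fell from 4.69 ± 0.526 FPKM in control cells to 1.36 ± 0.182 at day 2. These heavy chain genes are near copies of each other, so their values are uncertain. In class II presentation 0 of 2 passed at day 2, and the invariant chain Cd74 rose from 0.708 ± 0.589 to 3.05 ± 0.589 FPKM by day 16. Among 8 negative regulators 1 rose and 1 fell at day 2 (Pias3 by 0.52 and Pias2 by -0.85, log2), and from day 2 to day 16 Ptpn2 rose by 0.39 while Ptpn1 and Pias3 changed by -0.36 and -0.29.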

How the data were processed

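Total RNA of the 30 libraries was sequenced by the authors. They deposited 1 table of FPKM per gene symbol, for which the submitters' processing notes name the build rn6 and the tools Cuffnorm 2.2.1, Cufflinks and TopHat2 2.1.1. The annotation, library scaling and handling of reads shared by related genes are not given in the sources used here. FPKM were taken as deposited, as log2(FPKM + 1), for 8940 genes whose mean reached 1 FPKM. The fit was limma 3.58.1 in R 4.3.3 with a mean-variance trend, 10 group means and 2-sided tests, adjusted by Benjamini-Hochberg over those genes and called at 0.05. The slope used the 27 starved libraries. The fit was also run on simulated data with noise drawn independently for each library. That run does not cover deviations shared by same-numbered libraries. Group labels came from sample titles.

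The 5 genes, the pathway lists and the marker lists were chosen with earlier results of these data known. From each list the text names up to 3 rises and 3 falls of largest size among called genes, and for each of the 5 genes the 3 most alike in course. A gene that this rule would name is not reported here. Irf5, Isg15, Ifit1, B2m, Ifi27l2b and the genes under other observations were named after their values were seen. Whether replicate numbers pair libraries is not stated. Deviations from group means correlated between same-numbered libraries (r from 0.135 to 0.592) in day 2 against control, day 16 against control and day 16 against day 2, so the replicate number was also fitted as a block. In day 8 against day 2 (lowest r 0.000524) and day 16 against day 8 (lowest r 0.0486) they did not for every number. Alternatives varied the pseudocount, filter, scaling, trend, block, time scale and libraries included.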

Additional observations from a re-analysis of the deposited data

Results flagged for a closer look

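The change against unstarved cells was not the same early and late in starvation for any of the 5 genes, by limma's test of day 16 against day 2 (the control group cancels in this difference). It was smaller at day 16 for Stat2 (difference -0.246, log2, adjusted p = 0.00436) and for Irf1 (-0.631, adjusted p = 0.000786). It was larger at day 16 for Irf9 (0.363, adjusted p = 0.00603), Lgals3bp (0.289, adjusted p = 0.00216) and Ifi27 (0.425, adjusted p = 0.000935). In each case the 3 same-numbered pairs of libraries moved in the stated direction. That had to follow, since the day 2 and day 16 ranges did not overlap for any of the 5, and it is no separate check. The Lgals3bp difference did not pass after rescaling libraries to an equal sum (adjusted p = 0.0913).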

How the results depend on the processing

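Of 703 recomputed values of the 5 genes, 634 kept their direction and side of the threshold, 37 no longer passed, 11 newly passed and 21 changed sign. With the replicate number as a block, all 5 genes still passed in day 2 against control, day 16 against control and day 16 against day 2 (Irf1 at day 2 1.10, adjusted p = 2.94e-07), and no call of the 5 genes changed in the other comparisons refitted with it (day 8 against day 2, day 16 against day 8, the slope, the F test and the 4 called steps). Contrasts of days 3 to 14 with control were not refitted. The count of 5 in those 3 comparisons and in the F test also held with each library left out. Genes called from day 2 to day 8 numbered 2, and 1 after rescaling to an equal sum, quantile normalization, leaving out short RNA genes, or using replicates 2 and 3 only (1 to 2 with a library left out). From day 8 to day 16 they numbered 4, all upward (3 to 4 with a library left out). After rescaling to that sum 1 was called upward (Lgals3bp) and 1 downward (Stat2). With short RNA genes left out, 2 were called upward (Lgals3bp and Ifi27) and 1 downward (Stat2, adjusted p = 0.00472). Irf1 (0.118) and Irf9 (0.0599) did not pass there. Called steps between neighbouring time points numbered 4, then 1 after rescaling to that sum, 2 with replicates 2 and 3 only and 2 to 5 with a library left out, 2 being without Day6 replicate 1 or 3. Slopes that passed numbered 3, and 1 when only days 2 to 8 were fitted (Irf1, -1.76). That restriction gave -0.135 for Irf9 and -0.167 for Lgals3bp, neither of which passed. These 3 values are slopes scaled to 14 days, which reaches beyond the days fitted. The contrast of day 8 against day 2 itself gave -1.08 for Irf1. The remaining sign changes concern values that did not pass. From day 2 to day 8 Irf9 gave 0.0735 (equal sum), 0.0547 (short RNA genes left out) and 0.0214 (replicates 2 and 3), and -0.0957 to 0.0331 with a library left out. Ifi27 gave 0.0792, 0.0592 and 0.0598 under the same settings, 0.024 under quantile normalization and -0.0907 to 0.0737 with a library left out. The Irf1 slope gave -0.0765 (equal sum), -0.0981 (short RNA genes left out), -0.209 (log2 of day) and -0.0168 to 0.199 with a library left out. The cause of these shifts was not tested. Leaving out 1 library gave 30 to 36 called pathway genes at day 2 (36 with all libraries) and 25 to 29 from day 2 to day 16 (34). Over the other settings these counts ran from 25 (mean of at least 5 FPKM) to 41 (no filter, and the block) at day 2, and from 24 (mean of at least 5 FPKM) to 47 (no filter) from day 2 to day 16, with 25 after rescaling to an equal sum and 26 with short RNA genes left out. Either filter change alters how many genes are tested. With no counts, the depth behind low values is unknown.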

Other observations

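The pathway genes outside the 5 were placed by the group in which each had its highest mean. Of the 63 tested, 27 (42.9%) were highest at day 16, as were 13.7% of all tested genes, among them Irf2, Irf7, Mavs, B2m, Ifitm3 and Parp9. Another 9 (14.3%, against 9.85% of all genes) were highest at day 2, as Irf1 was: Gbp2, Ikbke, Irf3, Irf5, Pias3, Socs3, Sp110, Tyk2 and Zc3hav1. In control cells 6 (9.52%) were highest, against 34.5% of all genes. Gbp2, placed at day 2, and Ifi47, placed at day 16, reached the filter on low values only with the libraries of that group. This placement used FPKM as deposited and was not repeated after rescaling the libraries.

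Below the filter on low values, Socs1, an inhibitor of Janus kinases, was listed at 0.275, 1.17 and 0.545 FPKM in control cells, 2.66, 1.93 and 4.6 at day 2, 0.409, 0 and 0.845 at day 3 and 0.697, 0.928 and 0 at day 16. All 3 day 2 libraries were above those of the other groups named here. With no filter (12370 genes) limma gave 1.27 (log2) for day 2 against control (adjusted p = 0.000686) and -1.51 from day 2 to day 3 (adjusted p = 0.000705). The guanylate-binding protein gene Gbp4 changed by 0.52 and -0.62 over the same steps (adjusted p = 2.9e-06 and 2.96e-06). Others below the filter did not follow that course. Mx2 rose at day 2 (0.59, adjusted p = 0.000962), did not pass from day 2 to day 3 (-0.04, adjusted p = 0.976) and was lower at day 16 than at day 2 (-1.04, adjusted p = 1.78e-06). Psmb8 fell at day 2 (-0.47, adjusted p = 0.000632), from 0.0917, 0.534 and 0.581 FPKM in control cells to a listed 0, 0 and 0. Bst2, Dhx58, Oasl2 and Cxcl10 did not pass in either step and were higher at day 16 than at day 2 (0.83, 0.57, 0.45 and 0.65, adjusted p from 9.71e-05 to 0.00759). The day 2 libraries were listed at 0, 0 and 0 FPKM for Cxcl10 too. The Psmb8 fall and the Cxcl10 rise thus rest on listed zeros, which may be failed estimates. Of the 123 pathway genes in the table, 17 were listed at 0 in all 30 libraries.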
